A study of Mus musculus with 28 samples.

Results

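Bone morphogenetic protein (BMP) signalling in healing mouse skin was followed here through 10 genes of 29068 in the deposited table. They were taken by name as 4 ligands (Bmp2, Bmp4, Bmp6 and Bmp7), 3 antagonists (Nog, Grem1 and Bambi) and 3 target genes (Id1, Id2 and Id3), and all 10 had enough reads to be tested. RNA was sequenced from 28 libraries of dorsal skin, 4 at each of 7 time points, from mice labelled C57BL/6J with natural wound healing. The labels name the time points day 0, 3, 5, 7, 10, 12 and 14 and treat day 0 as the control. The captions of the study's figures count the day of injury as day 1. Whether the earliest skin was intact or freshly cut is therefore not settled by these sources. By the study's methods the animals were 8 weeks old, carried both copies of Mlkl (MLKL+/+), came from litters of both sexes and received a 6 mm punch wound down to the fascia. Every library held 0 to 13 reads of Xist, which is transcribed from the inactive X chromosome of females, and 2101 to 3722 reads of the Y-linked Ddx3y, so each library held RNA of male mice and none held Xist at more than 13 reads. The whole wound site with its scab and margins was taken, so each wound library is a mixture of new epidermis, granulation tissue and the skin around the wound. A change in such bulk tissue can come from fewer cells of a type or from less RNA per cell, which cannot be told apart.

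BMP ligands are secreted dimers that bind pairs of type I and type II receptors, and the receptors phosphorylate SMAD1, SMAD5 and SMAD9, which enter the nucleus with SMAD4 and switch on target genes. The Id genes are the best known of these targets, and their products bind basic helix-loop-helix transcription factors and keep them from DNA. Noggin (Nog) and gremlin 1 (Grem1) are secreted and hold ligands away from receptors, while Bambi is a membrane protein that resembles a type I receptor without a kinase. In skin the pathway is known for its part in the hair cycle, in which high BMP activity marks resting follicles and antagonists from the dermal papilla accompany the start of growth, and in the differentiation of epidermis and hair shaft.

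On the mouse build GRCm38 (mm10), Bmp2, Bmp7, Grem1 and Id1 lie on chromosome 2, Id3 lies on chromosome 4, Nog on 11, Id2 on 12, Bmp6 on 13 and Bmp4 on 14. RefSeq promoter entries were found for 5 of the 10 genes (Bmp4, Bmp6, Grem1, Id2 and Id3). The 250 bases before the start of 2 targets and of Grem1 are printed, 5′ to 3′ on the strand of the gene. Grem1 fell further than Nog, the other secreted antagonist among the 10 genes. These bases are the DNA next to which the transcripts described in the following paragraphs begin. Capitals mark 2 motifs that SMAD proteins are known to bind, GGCGCC, which is its own reverse complement, and CAGAC or its reverse complement GTCTG, which do not overlap GGCGCC here.
Id3, chr4:136143572-136143821, plus strand: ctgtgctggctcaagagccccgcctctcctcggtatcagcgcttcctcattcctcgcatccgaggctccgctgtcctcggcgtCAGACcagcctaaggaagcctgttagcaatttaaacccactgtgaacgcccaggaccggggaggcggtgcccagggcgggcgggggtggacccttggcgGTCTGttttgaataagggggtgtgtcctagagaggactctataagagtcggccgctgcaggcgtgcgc
Id2, chr12:25096093-25096342, minus strand: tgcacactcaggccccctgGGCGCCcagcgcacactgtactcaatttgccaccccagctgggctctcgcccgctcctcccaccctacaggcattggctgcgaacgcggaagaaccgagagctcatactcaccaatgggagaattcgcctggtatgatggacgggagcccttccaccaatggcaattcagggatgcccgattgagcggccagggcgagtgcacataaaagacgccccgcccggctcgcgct
Grem1, chr2:113758649-113758898, minus strand: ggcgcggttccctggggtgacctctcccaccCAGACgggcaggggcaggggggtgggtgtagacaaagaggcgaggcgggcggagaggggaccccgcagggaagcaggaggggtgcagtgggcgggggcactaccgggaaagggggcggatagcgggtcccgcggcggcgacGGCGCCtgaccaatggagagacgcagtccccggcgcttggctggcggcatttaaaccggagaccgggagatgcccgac
The Id3 window held CAGAC 167 bases before the start and GTCTG 68 bases before it, the Id2 window held GGCGCC at 231 bases, and the Grem1 window held GGCGCC at 78 and CAGAC at 219 bases. The Bmp6 window held the CAGAC motif once, at 119 bases, and the Bmp4 window held neither. Among 32536 RefSeq promoter windows of the same length, 9.65% held GGCGCC and 42.2% held CAGAC on either strand, so the second motif is common. A match describes letters in a window and is not a measured binding site.

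Between 36706513 and 40655764 reads were counted on genes in each library, with a median of 39499595, and the levels given here are FPKM as deposited, which scale the fragments of a gene to its length and to the total of the library. The 4 day 0 libraries fell into 2 pairs, and this pairing touches many of the comparisons against day 0. Day 0 replicates 1 and 4 had summed epidermal markers (6 keratinocyte genes) of 3394 and 3893 FPKM, against 1992 and 2083 in replicates 2 and 3. Their summed fibroblast markers (6 genes) were 5121 and 3048 FPKM against 11799 and 11369. The coefficient of biological variation was 26.5% on day 0 and between 5.77% and 10.8% on the later days. Every comparison against day 0 was therefore repeated without replicates 1 and 4 and without replicates 2 and 3, and the value is given beside a result where this ended or added a call. The pairs were picked from these data because their libraries are alike, so each repeat takes away most of the day 0 spread. Adjusted p of these repeats can therefore be too small. They describe how a change depends on the pair kept and are not further tests of it. Comparisons between wound days do not use the day 0 libraries except through the shared estimate of spread. That estimate does not carry the larger spread of day 0, so adjusted p against day 0 can be too small.

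Most of the 10 genes were lower than on day 0 from day 3 to day 10, and by day 14 Bambi, Id1 and Id3 were higher and Grem1 lower, while a lower Bmp4 depended on which day 0 libraries were used. Changes were tested by edgeR's quasi-likelihood test and called at an adjusted p under 0.05 over 18107 genes, and these wounds changed so many genes that the share of all genes passing is given beside each count. On day 3, 8 of the 10 genes passed against 66.6% of all genes, 7 of them lower (34.8% of all genes) and 1 higher (31.8%). On day 5, 9 passed (59.5%), 8 lower (30.6%) and 1 higher (29%). On day 7 all 7 that passed were lower (50.4% of all genes passed and 24.8% were lower), and on day 10 all 8 were lower (50.4% and 26.9%). On these 4 days the share of the 10 genes that passed was above that of all genes, and so was the share that passed as lower, but the 8 lower genes of day 10 became 5 lower and 2 higher without day 0 replicates 1 and 4 and 5 lower without replicates 2 and 3. On day 12, 4 passed (47.3%), 3 higher (21.7%) and 1 lower (25.6%), a count that rose to 7 without day 0 replicates 1 and 4 (3 higher and 4 lower) and to 8 without replicates 2 and 3 (5 higher and 3 lower). On day 14, 5 passed (62.7%), 3 higher (28.2%) and 2 lower (34.5%), which became 3 and 3 without day 0 replicates 1 and 4 and 5 and 1 without replicates 2 and 3. The median log2 fold change of the 10 genes was -0.61, -0.94, -0.48, -0.42, -0.049 and 0.011 on days 3, 5, 7, 10, 12 and 14, beside medians of all genes between -0.056 and 0.0024. By the study's own criteria, an absolute log2 fold change above 1.5 together with P under 0.05 before adjustment, the counts were 1, 2, 1, 0, 1 and 2 on these days, with 18.9%, 13.9%, 9.4%, 9.47%, 7.39% and 14% of all genes. The libraries of the wound day and of day 0 did not overlap, on log2 CPM, for 8, 5, 6, 6, 4 and 4 of the 10 genes on these days, and for 56.8%, 46.1%, 39.2%, 41.4%, 38.7% and 50.7% of all genes. All 10 genes passed the joint test for any difference among the 6 wound days, which 85.1% of all genes passed too.

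**Figure D1:**
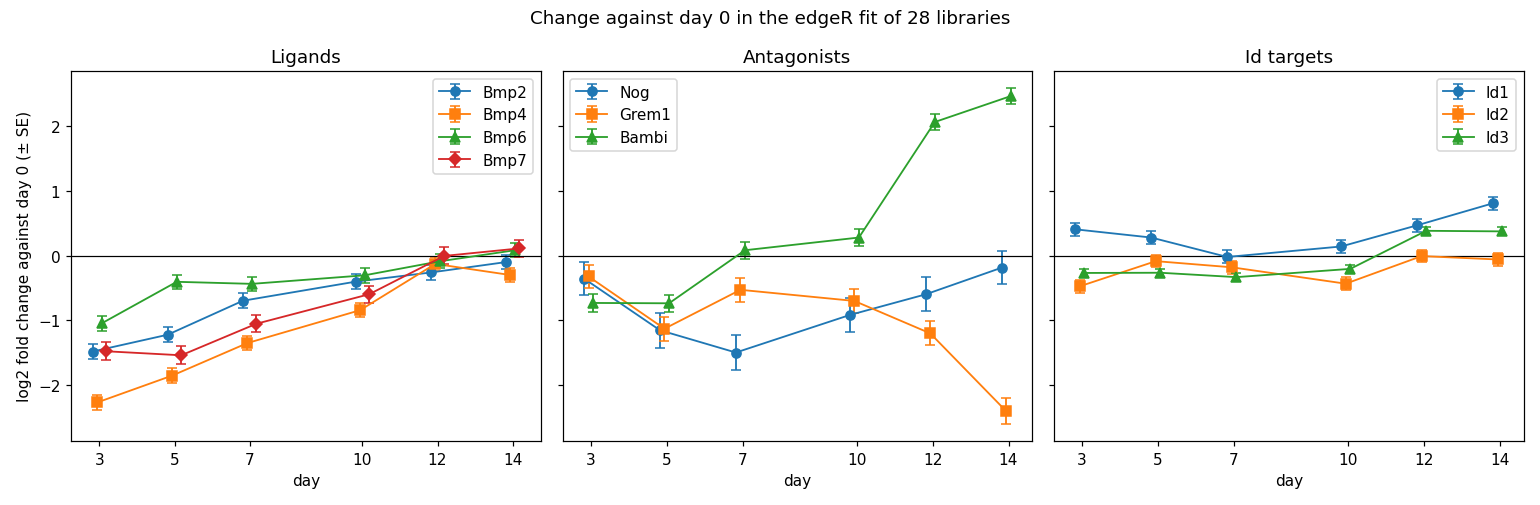
Log2 fold change against day 0 (vertical axis, ± SE) on days 3 to 14 (horizontal axis) for the ligands, the antagonists and the Id targets in 3 panels. All 4 ligands start below 0 on day 3 and end near 0, Grem1 ends at -2.41, Bambi ends at 2.47 and the Id genes stay within 1 log2 unit of day 0.

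The ligands fell together and climbed back over 2 weeks. Bmp4, which in skin is made largely by the dermis and dermal papilla, stood at 12.6, 14.9, 15.4 and 10.2 FPKM in the 4 day 0 libraries (13.3 ± 2.38, SD, n = 4). On day 3 the libraries held 3.22, 2.48, 2.04 and 2.81 FPKM (2.64 ± 0.501, SD, n = 4). No day 3 library came near a day 0 library, and the fitted level was 4.84-fold lower (log2 fold change -2.28, SE 0.12, adjusted p = 1.7e-15). Each of the next measured days brought a step up, and the means of days 5, 7, 10 and 12 were 3.56 ± 0.243, 5.20 ± 0.340, 7.68 ± 0.717 and 13.4 ± 0.720 FPKM (SD, n = 4). The steps from day 3 to 5, 5 to 7, 7 to 10 and 10 to 12 all passed (adjusted p = 0.012, 0.0015, 0.00095 and 7.2e-06), and in each the 4 libraries of the later day lay above the 4 of the earlier day. The first of these steps missed the threshold without day 3 replicate 2 (adjusted p = 0.062) or replicate 3 (adjusted p = 0.106). On day 12 Bmp4 did not pass against all 4 day 0 libraries (log2 fold change -0.13, SE 0.11), but it was lower without day 0 replicates 1 and 4 (-0.31, adjusted p = 0.012) and 0.10 without replicates 2 and 3 (adjusted p = 0.51). On day 14 its call (-0.30, adjusted p = 0.019) was lost on leaving out day 0 replicate 1, 2 or 3 or day 14 replicate 3 or 4 (adjusted p between 0.051 and 0.178) and was -0.01 without day 0 replicates 2 and 3, whereas it was -0.49 without replicates 1 and 4 (adjusted p = 0.00012).

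Bmp7, an epithelial ligand that can pair with BMP2 or BMP4, followed the same course. Its day 0 libraries showed the split described, with 7.50 and 7.27 FPKM in replicates 1 and 4 and 11.9 and 12.2 in replicates 2 and 3. On day 3 they held 4.11, 2.92, 3.56 and 2.78 FPKM and on day 5 2.91, 3.46, 3.57 and 2.99 FPKM. All 8 of these wound libraries lay below every day 0 library, and the fitted level was 2.79-fold lower on day 3 and 2.92-fold lower on day 5 (adjusted p = 2.4e-10 and 1.5e-10). The fall on day 3 was -1.79 on the log2 scale without day 0 replicates 1 and 4 and -1.04 without replicates 2 and 3, so its size depended on which pair served as reference while its call did not. The means then climbed through 4.67 ± 0.518, 6.65 ± 0.352, 10.7 ± 0.715 and 11.4 ± 0.367 FPKM on days 7, 10, 12 and 14 (SD, n = 4). The steps from day 5 to 7, 7 to 10 and 10 to 12 passed (adjusted p = 0.0080, 0.010 and 0.00069) and that from day 12 to 14 did not. Its call on day 10 (-0.60, adjusted p = 0.00043) was lost without day 0 replicates 2 and 3 (-0.21, adjusted p = 0.13), and on day 12 it was -0.31 without replicates 1 and 4 (adjusted p = 0.014) and 0.40 without replicates 2 and 3 (adjusted p = 0.0047). Whether Bmp7 ended above or below day 0 is not fixed by these libraries, since the day 14 log2 fold change was 0.11 with all 4, -0.19 without replicates 1 and 4 (adjusted p = 0.11) and 0.58 without replicates 2 and 3 (adjusted p = 7.4e-05).

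Bmp2, a ligand with roles in the epidermis and hair follicle, was less abundant and moved in the same way. The day 0 libraries held 3.15, 2.70, 2.23 and 2.61 FPKM, and the day 3 libraries 0.965, 0.899, 1.05 and 0.755 FPKM. This was a 2.80-fold lower fitted level (log2 fold change -1.49, SE 0.12, adjusted p = 1.3e-11) with no overlap between the days. Levels of 1.11 ± 0.138, 1.65 ± 0.106, 2.10 ± 0.184 and 2.47 ± 0.0858 FPKM followed on days 5, 7, 10 and 12 (SD, n = 4), and only the step from day 5 to day 7 passed among consecutive days (adjusted p = 0.0011). The rise from day 7 to day 10 stood at the threshold (adjusted p = 0.050) with no overlap between the libraries. On day 14 the libraries held 2.58, 3.32, 2.52 and 2.48 FPKM, and the difference from day 0 was -0.10 on the log2 scale (SE 0.11). The call on day 10 (-0.40, adjusted p = 0.0040) was lost without day 0 replicates 1 and 4 (-0.28, adjusted p = 0.070), and on day 12 one was gained without replicates 2 and 3 (-0.36, adjusted p = 0.025).

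Bmp6, which is expressed in differentiating epidermis, fell as well. It stood at 4.04, 2.95, 3.72 and 3.78 FPKM on day 0 and 1.41, 1.80, 1.76 and 1.75 FPKM on day 3, a 2.07-fold lower fitted level (adjusted p = 6.2e-09) without overlap. On the log2 scale this was -1.05, smaller than the -1.48 of Bmp7, but without day 0 replicates 2 and 3 the order turned (-1.12 and -1.04). By day 5 it had risen 1.56-fold from day 3 (adjusted p = 0.00012), to 2.61, 2.44, 2.68 and 2.89 FPKM. Against day 0 this was -0.41 on the log2 scale (adjusted p = 0.0027), a call that was lost without day 0 replicates 1 and 4 (-0.28, adjusted p = 0.063). No later step between consecutive days passed. It was still below day 0 on day 7 (log2 fold change -0.44, adjusted p = 0.0018) and on day 10 (-0.31, adjusted p = 0.024). The call on day 10 was lost without day 0 replicate 1 (adjusted p = 0.087), day 0 replicate 4 (adjusted p = 0.051) or day 10 replicate 2 (adjusted p = 0.087), and without day 0 replicates 1 and 4 together it was -0.18 (adjusted p = 0.26). The day 14 level of 4.19 ± 0.249 FPKM (SD, n = 4) did not differ from day 0 beyond the spread (0.08, SE 0.11).

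**Figure D2:**
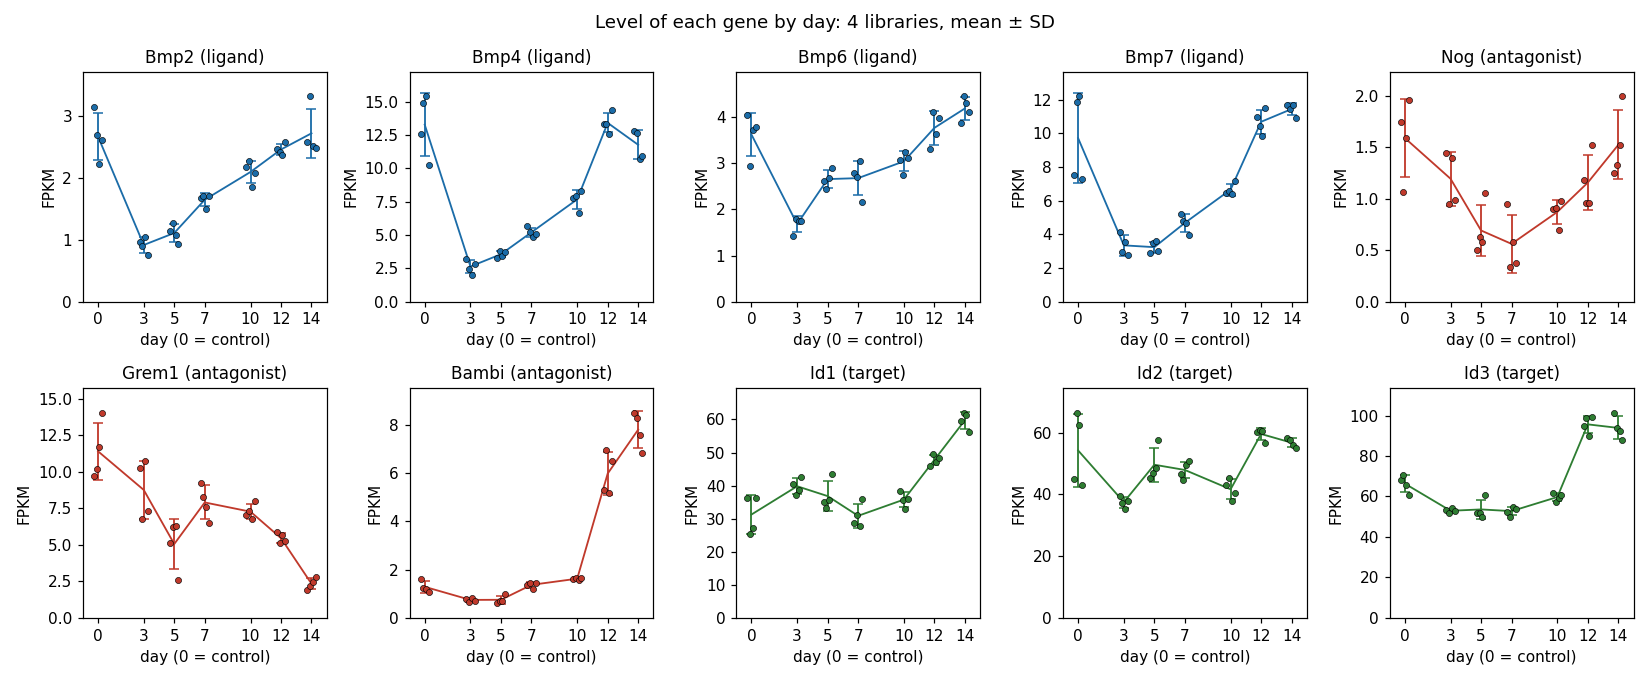
FPKM of each of the 10 genes (vertical axes, each from 0) by day (horizontal axis) in 28 libraries, with points for libraries and lines with bars for the mean and SD of 4. The ligands dip on day 3, Grem1 is lowest on day 14 with 1.93 to 2.80 FPKM, Bambi climbs from day 12, and Id3 steps up between day 10 and day 12.

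The antagonists did not move as a group. Grem1, a secreted antagonist of BMP2, BMP4 and BMP7 made by dermal fibroblasts, ended far below its starting level. The day 0 libraries held 9.70, 10.2, 11.7 and 14.0 FPKM and the day 3 libraries 10.2, 6.76, 10.7 and 7.33 FPKM. These days overlapped and Grem1 did not pass on day 3 (log2 fold change -0.32, SE 0.18, adjusted p = 0.12), the day on which all 4 ligands had their lowest or close to lowest level. It then fell to 5.12, 6.23, 6.27 and 2.61 FPKM on day 5 (1.75-fold lower than on day 3, adjusted p = 0.0019), with replicate 4 far below the other 3 libraries. Days 7, 10 and 12 followed with 7.90 ± 1.16, 7.27 ± 0.529 and 5.46 ± 0.350 FPKM (SD, n = 4). Against day 0 all of these days passed as lower, by -1.13, -0.53, -0.70 and -1.21 on the log2 scale on days 5, 7, 10 and 12. The call on day 7 (adjusted p = 0.017) was lost without day 0 replicate 4 (-0.42, adjusted p = 0.067) or day 7 replicate 4 (-0.44, adjusted p = 0.064). The rise from day 5 to day 7 (0.60, adjusted p = 0.015) was lost without day 5 replicate 4 (0.39, adjusted p = 0.060) or day 7 replicate 1 (0.51, adjusted p = 0.062). On day 14 the 4 libraries held 1.93, 2.17, 2.45 and 2.80 FPKM, all below every library of day 12 and of day 0. The fitted level was 2.31-fold lower than on day 12 (adjusted p = 1.7e-05) and 5.32-fold lower than on day 0 (log2 fold change -2.41, SE 0.20, adjusted p = 3.5e-11), and -2.35 or -2.40 without either pair of day 0 libraries. The drop from day 10 to day 12 (-0.50, adjusted p = 0.033) was lost on leaving out any single library of those days except day 12 replicate 1 (adjusted p between 0.052 and 0.093).

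Nog, which binds BMP2, BMP4 and BMP7 tightly, had the fewest reads of the 10 genes, with 26 to 147 per library. By mean FPKM, Bambi was lower than Nog on days 0 and 3 and Bmp2 on day 3. It stood at 1.75, 1.07, 1.59 and 1.96 FPKM on day 0 and 1.44, 0.947, 1.40 and 0.987 FPKM on day 3, which overlapped (log2 fold change -0.36, SE 0.26). The lowest mean came on day 7, with 0.949, 0.337, 0.580 and 0.379 FPKM. All 4 of these lay below day 0, a 2.83-fold lower fitted level (adjusted p = 5.3e-05). Days 5 and 10 passed as well (-1.16 and -0.92, adjusted p = 0.00063 and 0.0054), day 10 not without day 0 replicates 1 and 4 (-0.66, adjusted p = 0.076). Day 12 did not pass with all 4 day 0 libraries (-0.60, adjusted p = 0.062) but did without replicates 2 and 3 (-0.81, adjusted p = 0.026). By day 14 the libraries held 1.24, 1.33, 1.52 and 1.99 FPKM and did not differ from day 0 beyond their spread (-0.19, SE 0.26). The steps of Nog from day 5 to 7 (adjusted p = 0.41), 7 to 10, 10 to 12 and 12 to 14 did not pass one by one, so the day of its lowest level is not fixed.

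Bambi, the membrane pseudoreceptor, had the largest rise. It held 1.63, 1.25, 1.21 and 1.07 FPKM on day 0 and fell to 0.800, 0.659, 0.814 and 0.708 FPKM on day 3, 1.66-fold lower (adjusted p = 3.0e-05) without overlap. It stayed there on day 5 (0.750 ± 0.156 FPKM, SD, n = 4) and returned to 1.37 ± 0.129 FPKM on day 7, 1.77-fold above day 5 (adjusted p = 2.8e-05). On day 10 the libraries held 1.61, 1.67, 1.55 and 1.67 FPKM, which passed as higher than day 0 without day 0 replicates 1 and 4 (0.35, adjusted p = 0.034) but not without replicates 2 and 3 (0.21, adjusted p = 0.30). On day 12 they held 5.30, 6.97, 5.18 and 6.48 FPKM. Between these 2 days the fitted level rose 3.46-fold (log2 fold change 1.79, SE 0.13, adjusted p = 7.3e-12), the largest step of any of the 10 genes between consecutive days. On day 14 it reached 8.50, 8.29, 7.57 and 6.84 FPKM, 5.54-fold above day 0 (adjusted p = 5.7e-15). The last step, from day 12 to day 14, passed (0.40, adjusted p = 0.0077) although the libraries of the 2 days overlapped.

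Among the Id genes the changes were small in fold and high in level, since Id1, Id2 and Id3 were the 3 most abundant of the 10 genes per length on every day. Id3 held 68.0, 70.8, 65.9 and 60.8 FPKM on day 0 and 53.2, 51.8, 54.1 and 52.6 FPKM on day 3, 1.21-fold lower (adjusted p = 0.00042) without overlap. It reached at most 61.8 FPKM on days 5, 7 and 10 and passed as lower than day 0 on each of these days (log2 fold change between -0.33 and -0.21), on day 10 not without day 0 replicates 2 and 3 (-0.17, adjusted p = 0.072). On day 12 the libraries held 95.0, 98.6, 89.9 and 99.1 FPKM and on day 14 101, 94.1, 92.4 and 87.7 FPKM. All 8 lay above every earlier library, and the step from day 10 to day 12 was 1.505-fold (log2 fold change 0.59, SE 0.06, adjusted p = 1.3e-08). Against day 0, days 12 and 14 were 1.30-fold higher each (adjusted p = 1.1e-05 and 7.2e-06), also without either pair of day 0 libraries.

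Id1 was the only one of the 10 genes that passed as higher on day 3. Its day 0 libraries split as the pairs did, with 36.3 and 36.4 FPKM in replicates 1 and 4 and 25.2 and 27.1 in replicates 2 and 3. The day 3 libraries held 40.6, 37.2, 38.7 and 42.7 FPKM, all above day 0, a 1.32-fold higher fitted level (adjusted p = 0.00082). The rise was 0.67 on the log2 scale without day 0 replicates 1 and 4 and 0.23 without replicates 2 and 3 (adjusted p = 0.032). On day 5 the call (0.28, adjusted p = 0.018) was not borne by the libraries alone, since they overlapped (exact permutation p = 0.257), and it was lost without day 0 replicate 2 (adjusted p = 0.106), day 0 replicate 3 (adjusted p = 0.085) or day 5 replicate 4 (adjusted p = 0.111), and was 0.07 without day 0 replicates 2 and 3 (adjusted p = 0.55). On day 7 Id1 was 0.24 without replicates 1 and 4 and -0.24 without replicates 2 and 3 (adjusted p = 0.033 and 0.029), and on day 10 it passed without replicates 1 and 4 (0.40, adjusted p = 0.00054). Means of 30.9 ± 3.64 and 35.8 ± 2.21 FPKM on days 7 and 10 (SD, n = 4) were followed by 46.1, 49.5, 47.0 and 48.5 FPKM on day 12 and 59.7, 62.0, 61.2 and 56.2 FPKM on day 14. The last 2 steps passed (1.26-fold and 1.27-fold, adjusted p = 0.0096 and 0.0059), each without overlap, and day 14 was 1.75-fold above day 0 (adjusted p = 6.5e-08).

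Id2 held 45.0 and 43.1 FPKM in day 0 replicates 1 and 4 and 66.4 and 62.4 in replicates 2 and 3. On day 3 it stood at 39.5, 37.2, 35.2 and 38.0 FPKM, below every day 0 library (log2 fold change -0.48, adjusted p = 0.00012), but this was -0.13 without day 0 replicates 2 and 3 (adjusted p = 0.16). On day 10 the call (-0.44, adjusted p = 0.00051) was likewise lost without replicates 2 and 3 (-0.14, adjusted p = 0.16). On days 5, 7 and 12 Id2 passed as lower without replicates 1 and 4 (-0.33, -0.42 and -0.25), whereas without replicates 2 and 3 it was 0.22 (adjusted p = 0.020), 0.11 (adjusted p = 0.25) and 0.30 (adjusted p = 0.0029). On day 14 the log2 fold change was -0.30 without replicates 1 and 4 and 0.31 without replicates 2 and 3 (adjusted p = 0.00085 and 0.0016). Between wound days Id2 was steadier. It rose 1.31-fold from day 3 to day 5 (adjusted p = 0.0041), to 45.4, 46.9, 48.4 and 57.7 FPKM. It stood at 43.1, 45.3, 37.8 and 40.4 FPKM on day 10 and at 60.2, 60.9, 60.4 and 56.7 FPKM on day 12, a 1.35-fold step (adjusted p = 0.00088) without overlap. Its drop from day 7 to day 10 (-0.25, adjusted p = 0.048) was lost without replicate 1, 3 or 4 of either day (adjusted p between 0.067 and 0.127).

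Day 12 was therefore the day on which most of the 10 genes stepped up. From day 10 to day 12, 7 of the 10 passed (39.4% of all genes), 6 higher (18.7%) and 1, Grem1, lower (20.7%). The 6 were Bmp4 (1.64-fold), Bmp7 (1.51-fold), Bambi (3.46-fold), Id1 (1.26-fold), Id2 (1.35-fold) and Id3 (1.505-fold). From day 3 to day 5, 5 passed (24.3% of all genes), 3 higher (12.9%) and 2 lower (11.4%), and without day 3 replicate 3 only 3 passed. The lower call of Nog (-0.80, adjusted p = 0.034) was lost without day 3 replicate 1 or 3 or day 5 replicate 1, 2 or 3 (adjusted p between 0.073 and 0.110). From day 5 to day 7, 6 passed (28.5%), 5 higher (13.9%) and 1, Id1, lower (14.6%), the lower one lost without day 5 replicate 4 (adjusted p = 0.132), day 7 replicate 1 (adjusted p = 0.067) or day 7 replicate 3 (adjusted p = 0.092). From day 7 to day 10, 3 passed (32.3%), 2 higher (14.3%) and 1 lower (18%), and from day 12 to day 14, 3 passed (45.2%), 2 higher (19.9%) and 1 lower (25.3%). The libraries of consecutive days did not overlap on log2 CPM for 4, 4, 5, 7 and 2 of the 10 genes over the 5 intervals, beside 28.8%, 29.6%, 37.3%, 45.8% and 46.6% of all genes.

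Whether libraries with more of one Id transcript also had more of another was examined on deviations of log2 CPM from the day means, for 3 pairs. Over all 28 libraries Pearson's r was -0.31 for Id1 and Id2, 0.17 for Id1 and Id3 and 0.49 for Id2 and Id3 (permutation p within days, adjusted over the 3, 0.52, 0.53 and 0.15). Spearman's rho was -0.057, 0.20 and 0.35 (adjusted permutation p = 0.81, 0.61 and 0.41), and r without the 2 libraries farthest from the median of the first gene was -0.39, 0.11 and 0.33. Over the 24 wound libraries alone r was 0.63, 0.52 and 0.54 (adjusted permutation p = 0.082 for each) and 0.37, 0.30 and 0.23 without the 2 farthest libraries, of which day 5 replicate 4 was one each time. The corresponding rho was 0.43, 0.38 and 0.32 (adjusted permutation p = 0.16, 0.16 and 0.17). The sign for Id1 and Id2 thus changed when the day 0 libraries were left out, and none of the 3 relations passed.

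Levels per length allow the sum of the 4 ligands to be set beside that of Nog and Grem1. Over days 0, 3, 5, 7, 10, 12 and 14 the sum of the 4 ligands was 23.9 to 33.5, 8.10 to 9.70, 9.95 to 10.96, 12.9 to 15.3, 18.2 to 20.7, 28.4 to 32.4 and 28.4 to 31.9 FPKM. The sum of Nog and Grem1, most of it Grem1 though Nog held 1.52 and Grem1 2.34 FPKM in the mean on day 14, was 11.3 to 16.001, 7.71 to 12.1, 3.67 to 6.86, 6.85 to 10.2, 7.48 to 8.97, 6.06 to 7.03 and 3.18 to 4.79 FPKM on the same days. Their ratio was 1.49 to 2.88, 0.694 to 1.05, 1.57 to 2.88, 1.51 to 1.89, 2.30 to 2.46, 4.28 to 5.01 and 5.94 to 9.74. On day 3 the sum of Nog and Grem1 exceeded the ligand sum in 3 of the 4 libraries, which no library of another day showed, and the ratios of days 12 and 14 lay above those of every other day. These ratios were formed after the course of the genes was known and are a description of transcript levels, not of protein. They leave out other secreted antagonists, some of which were more abundant than the ligand sum, such as Nbl1 with a mean of 69.7 FPKM on day 0 and Sostdc1 with 38.7 FPKM on day 14, so they give no balance of all ligands and antagonists.

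**Figure D3:**
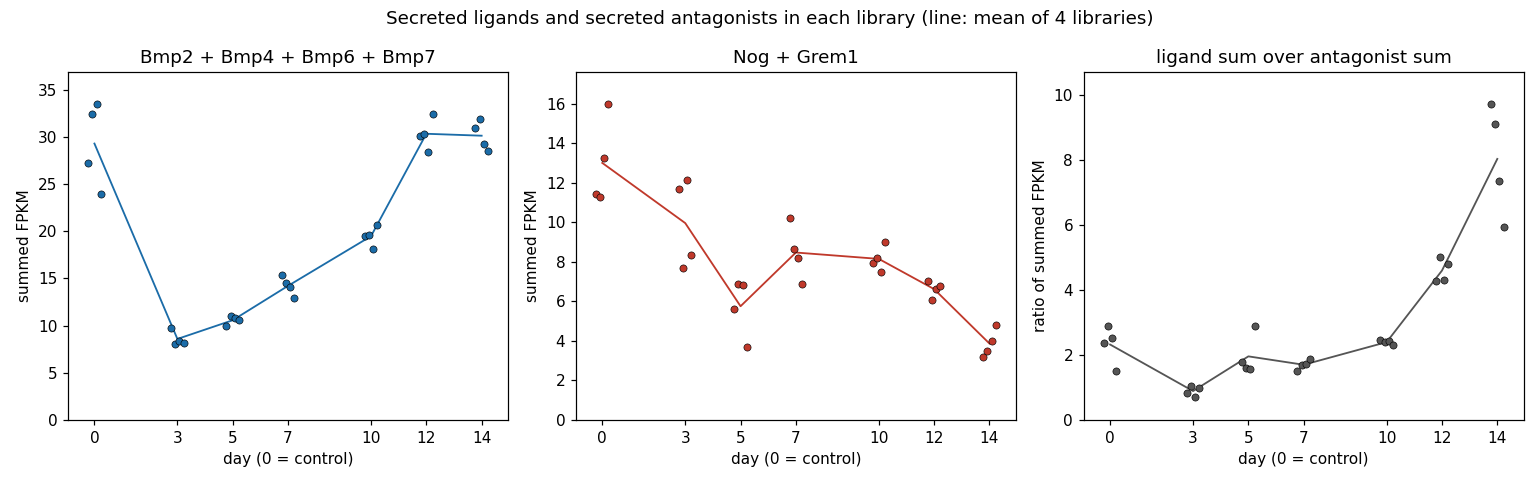
Summed FPKM of Bmp2, Bmp4, Bmp6 and Bmp7 (left), summed FPKM of Nog and Grem1 (middle) and the ratio of the sums (right) by day, with points for the 28 libraries and lines for day means. The ratio is lowest on day 3, at 0.694 to 1.05, and highest on day 14, at 5.94 to 9.74.

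The order of the 10 genes by FPKM shifted accordingly. On day 0 it ran Id3, Id2, Id1, Bmp4, Grem1, Bmp7, Bmp6, Bmp2, Nog and Bambi. On day 3 Grem1 stood above all 4 ligands, and on day 14 it stood below all 4, with only Nog lower. Bambi moved from the last place on days 0 and 3 to the place after Bmp4 and Bmp7 on days 12 and 14. Within genes, days next to each other in the order of their means often overlapped. For Bmp4 this held between days 12 and 0 and between days 0 and 14, and for Id2 and Nog it held for each pair of days that were neighbours in this order.

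The other genes of the pathway were read from a list of 50, of which 49 were in the table and 47 had enough reads to be tested. Gdf2 reached at most 1 read and Gdf7 at most 9 reads in a library, and Bmp10 was not analysed here. On day 3, 9 of the 47 were higher and 26 lower, with a median log2 fold change of -0.35 beside -0.032 for all genes, of which 31.8% were higher and 34.8% lower. On days 5, 7, 10, 12 and 14 the counts were 8 and 23, 9 and 14, 15 and 13, 18 and 11, and 14 and 17 (higher and lower), or 31, 23, 28, 29 and 31 of the 47 in all, beside 59.5%, 50.4%, 50.4%, 47.3% and 62.7% of all genes. The receptors and co-receptors (10 genes) had 6 lower and 2 higher on day 3, the 4 SMADs were all lower, by at most 1.82 on the log2 scale (Smad9), and of the 4 intracellular inhibitors Smad6 and Smad7 were higher (0.41 and 0.58). By day 14 the inhibitors Smad6 and Smad7 were higher (0.91 and 0.37) and Smurf1 lower (-0.31), and the receptors had 4 lower and 1 higher.

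Of these other genes, 8 are described, by the rule of an adjusted p under 0.05 with a log2 fold change over 1.5 and at least 1 FPKM on one of the days. The homeobox targets Msx2 and Msx1 went from 2.67 ± 1.98 and 2.36 ± 0.783 FPKM on day 0 to 44.5 ± 4.51 and 10.6 ± 0.257 FPKM on day 14 (SD, n = 4), 15.2-fold and 4.12-fold higher (adjusted p = 1.4e-12 and 1.2e-11). The log2 fold change of Msx2 was 3.93 and became 4.68 without day 0 replicate 1. The fourth Id gene, Id4, went further than the other three, from 6.32 ± 0.584 FPKM on day 0 to 1.06 ± 0.142 on day 3 (5.74-fold lower, adjusted p = 1.5e-18) and 19.7 ± 0.912 FPKM on day 14 (SD, n = 4). Id4 was thus lower and Id1 higher on day 3, and both were higher on day 14.

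The secreted modulators differed among themselves. Sostdc1, an antagonist of BMP and a modulator of Wnt signalling, fell from 23.2 ± 1.92 to 3.16 ± 0.641 FPKM on day 3 (7.05-fold lower, adjusted p = 4.6e-18) and stood at 38.7 ± 3.07 FPKM on day 14 (SD, n = 4). Bmper, a BMP-binding protein, moved the other way on day 3, from 2.07 ± 0.561 to 7.16 ± 0.802 FPKM (3.60-fold higher, adjusted p = 1.5e-12). Nbl1, a secreted antagonist of the same family as Grem1, was 3.12-fold lower on day 14 (69.7 ± 10.5 to 24.4 ± 2.98 FPKM, adjusted p = 4.9e-13). Grem1 and Nbl1 thus had their lowest means on day 14 and Sostdc1 its highest.

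The ligand Bmp5 was 3.02-fold lower on day 14 (1.40 ± 0.343 to 0.507 ± 0.165 FPKM, adjusted p = 2.7e-07). Bmp1, which in spite of its name is a protease that processes procollagen and cleaves chordin, rose from 31.6 ± 9.58 to 90.1 ± 4.50 FPKM on day 7 (2.85-fold, adjusted p = 2.4e-11) and was back at 32.3 ± 1.23 FPKM on day 14 (SD, n = 4).

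**Figure D4:**
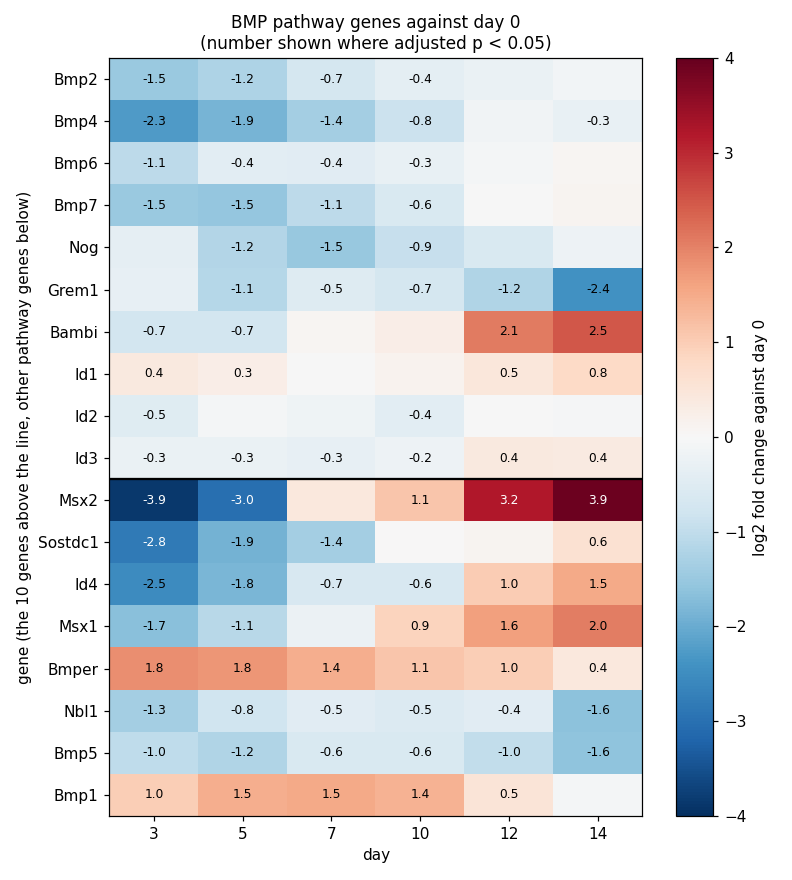
Log2 fold change against day 0 (colour, from -4 to 4) on days 3 to 14 (columns) for the 10 genes (rows above the line) and the 8 other pathway genes described (rows below it), with the value printed where the adjusted p was under 0.05. Msx2, Id4 and Sostdc1 share the low values of the ligands on day 3, and Bambi, Msx1, Msx2 and Id4 share high values on days 12 and 14.

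Markers of the cells in the samples moved at the same time, and they are given as summed FPKM. Hair matrix and dermal papilla markers (8 genes, all lower on day 3) were 7.53 to 15.6 in day 0 skin and 1.72 to 2.14, 2.599 to 3.49, 9.44 to 10.9, 25.6 to 29.1, 58.0 to 66.9 and 92.7 to 103 on the wound days in order. Hair shaft and inner root sheath markers (12 genes, Msx2 among them) did not climb evenly. They were 133 to 1012 in day 0 skin and 2.51 to 5.65, 5.06 to 8.49, 578 to 798, 154 to 175, 2539 to 3383 and 2677 to 3490 on the wound days in order. All 12 were higher on day 7 than on day 5, and 8 were lower on day 10 than on day 7. Low ligands and low Bambi thus coincided with low follicle markers on days 3 and 5, and high Bambi and Id3 with high follicle markers on days 12 and 14. On days 7 and 10 the 4 ligands and Id3 passed as lower than day 0, while 2 and 7 of the 8 hair matrix markers were higher and 1 and 0 lower, and 4 and 1 of the 12 hair shaft markers were higher and 0 and 8 lower. The part of these markers in the results was not tested. Bmp4 held 10.2 to 15.4 FPKM on day 0 and 10.7 to 12.8 FPKM on day 14.

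Markers of other cells stood as follows. Endothelial markers (6 genes) were 125 to 164 FPKM in day 0 skin, 223 to 238 FPKM on day 3 and 123 to 140 FPKM at the end, and they were 228 to 252, 187 to 201 and 196 to 224 FPKM on days 5, 7 and 10. Id1, which endothelial cells are known to express, passed as higher on days 3 and 5, when 5 of the 6 markers were higher, and not on days 7 and 10, when 5 and 4 were higher. It was also higher on days 12 and 14, when none of them was higher and 3 and 2 were lower. Fibroblast markers (6 genes) were 3048 to 11799 FPKM in day 0 skin, 8890 to 10017 FPKM on day 12 and 3550 to 3995 FPKM on day 14, when Grem1 was lowest and all 6 markers were lower than on day 0 and day 12. The markers were 4292 to 4918 FPKM on day 3 (4 of 6 lower), when Grem1 did not pass, and day 0 replicate 4 had the lowest marker sum of that day and the highest Grem1 level, 14.0 FPKM. On days 5, 7, 10 and 12, 2, 3, 4 and 2 of the 6 were higher than day 0. Lower were 1, 0, 1 and 0 of them, while Grem1 passed as lower on each of these days. Epidermal markers (6 genes) were 1992 to 3893 FPKM in day 0 skin and 1665 to 3029 FPKM on the wound days, and 5, 4 and 4 of the 6 were lower than day 0 on days 3, 5 and 7, when Bmp6 and Bmp7 were lower too. On days 10, 12 and 14, 3, 2 and 3 of the 6 were lower, and from day 7 on 1 was higher each day. Bmp6 and Bmp7 were lower on day 10 and did not pass on days 12 and 14 with all 4 day 0 libraries. Skeletal muscle markers were 10029 to 16209 FPKM on day 0 and 2189 to 5887 on later days, and neutrophil markers were 16.5 to 63.6 FPKM on day 0 and 7622 to 9733 on day 3. No marker was at 0 in all libraries of any day, and the part of these cells in the results was not tested.

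**Figure D5:**
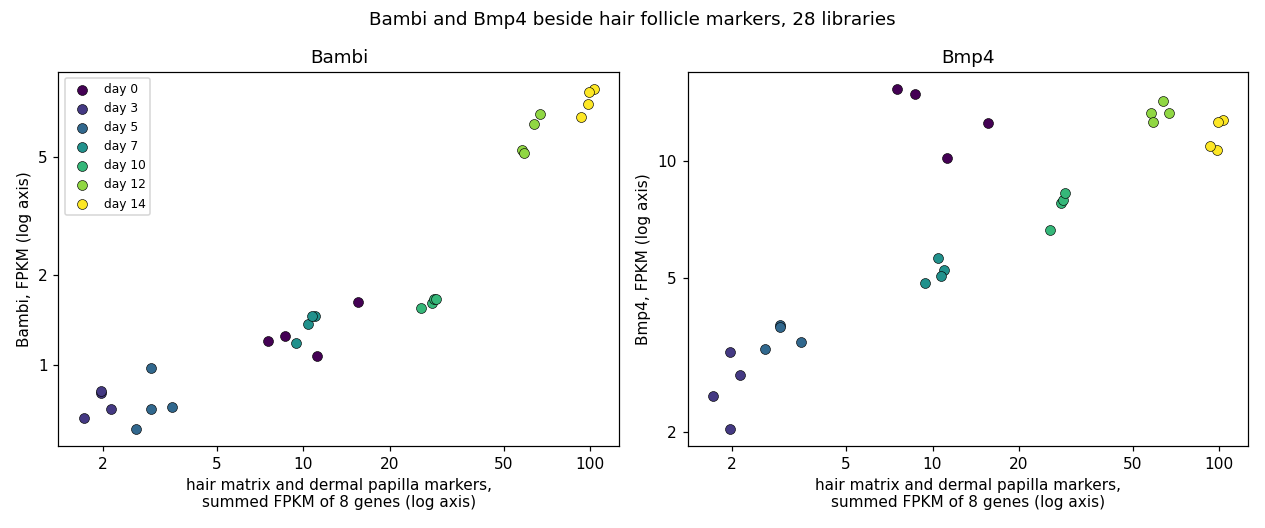
Bambi (left) and Bmp4 (right) in FPKM against the summed FPKM of 8 hair matrix and dermal papilla markers in the 28 libraries, all axes logarithmic, coloured by day. Bambi lies below 1 FPKM on days 3 and 5 where the markers are lowest and is highest on day 14 where they are highest, and Bmp4 holds 10.2 to 15.4 FPKM on day 0 and 10.7 to 12.8 FPKM on day 14.

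The genes whose log2 CPM ran most nearly parallel to each of the 10 over the 28 libraries are given as a description, since the libraries share the 7 time points. For Bambi they were Gnmt, Dok4 and Slc39a10 (Pearson's r of 0.989, 0.984 and 0.983). For Bmp4 they were Foxc1, Fzd7 and Ltbp4 (0.977, 0.973 and 0.973), for Bmp7 Epcam, Casz1 and Rab38 (0.958, 0.955 and 0.954) and for Bmp2 Lratd1, Efnb2 and Fgfr2 (0.958, 0.957 and 0.956). For Bmp6 they were Papln, Timp3 and Ckb (0.911, 0.906 and 0.905) and for Grem1 Pip4k2b, Cep120 and Cblb (0.920, 0.911 and 0.900). For Id1 they were Eif5a, Cct6a and Nip7 (0.955, 0.953 and 0.949), of which the first is a translation factor and the second a chaperonin subunit, and for Id3 Krtap5-2, Serinc2 and Krtap5-3 (0.949, 0.945 and 0.944), of which both Krtap genes belong to a family of near-identical keratin-associated genes whose reads may be shared. Id2 and Nog had the weakest partners, Dpep1, Cst6 and Slc46a2 (0.842, 0.838 and 0.837) and Tnfrsf18, Adsl and Aar2 (0.811, 0.806 and 0.798).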

How the data were processed

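RNA of 28 libraries (7 days, 4 each) was analysed. The authors deposited raw counts per gene symbol and FPKM, which equal the count divided by a constant gene length and the library total. The processing notes name fastp, mm10 and R 3.2.0. The aligner, counter and strandedness are not given in the sources used here, so overlapping and antisense genes can share reads. Nothing in the labels ties libraries to animals, so p-values measure the spread between libraries, which differed by more than counting noise (lowest median chi-square per gene 1.48 against 0.455).

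Counts were fitted in R 4.3.3 with edgeR 4.0.16 (TMM, filterByExpr, glmQLFit, glmQLFTest, two-sided) over all 28 libraries, with Benjamini-Hochberg adjustment over 18107 genes. Adjusted p values come from this fit. An exact permutation test of log2 CPM was run for single genes (prior count 2, 4 libraries against 4), and its smallest possible p is 0.0286. Overlap of single genes between days is stated on FPKM as deposited, and counts of genes without overlap on log2 CPM. FPKM is not corrected for composition, so its ratio can differ from the fitted fold. In simulated counts for day 3 against day 0, edgeR found 181 of 200 changed genes with 6 false calls among 17709 genes. These counts were drawn with the same spread per gene on every day. They lack the larger spread and the pairs of day 0, so they do not show how many calls against day 0 are false.

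The 10 genes and all lists were chosen with earlier results of these data known. Named besides them were, for each gene, the 3 genes with the highest Pearson's r, and, from the list of 50 pathway genes, up to 12 with the largest log2 fold change over 1.5 at an adjusted p under 0.05 and at least 1 FPKM. Of these, 1 is not reported here. Alternatives were DESeq2 1.42.0, its size factors, no composition normalization, no filter, at least 10 counts in every library, only the 8 libraries of a comparison, only the wound days, the study's criteria, a prior count of 0.5, a replicate block and each library left out. Leaving out pairs of day 0 libraries was added after seeing the data. The Xist covariate was not run, because Xist reached at most 13 counts and failed the filter.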

Additional observations from a re-analysis of the deposited data

Results flagged for a closer look

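In 4 of the 70 groups of 4 libraries (10 genes on 7 days), 1 library stood apart from the other 3 by Dixon's criterion, and chance alone gives about 3.5 such groups. Bmp2 was 1.49 FPKM in day 7 replicate 3, below the 1.68 to 1.72 FPKM of the others, and 3.32 FPKM in day 14 replicate 2, above the 2.48 to 2.58 FPKM of the others. Bmp6 was 1.41 FPKM in day 3 replicate 1, below 1.75 to 1.80 FPKM. Id2 was 56.7 FPKM in day 12 replicate 4, below 60.2 to 60.9 FPKM. The low Grem1 value of day 5 replicate 4, at 2.61 FPKM, did not meet the criterion.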

How the results depend on the processing

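The counts of passing genes per day stayed within 1.5 times their value under DESeq2, its size factors, no composition normalization, no filter, a minimum of 10 counts, the 8 libraries of each comparison and the replicate block, but single calls changed. Lost were Bmp4 on day 14 without a filter (adjusted p = 0.053), without composition normalization (0.18) and with 8 libraries (0.16), Bmp6 on day 10 without composition normalization (0.053) and with 8 libraries (0.065), Id1 on day 5 with 8 libraries (0.14), and Id2 from day 7 to 10 with DESeq2 (0.053) and its size factors (0.056). Gained were Bmp2 on day 12 with DESeq2 (0.048) and at least 10 counts (0.041), Nog on day 12 with at least 10 counts (0.048), Bambi on day 10 without composition normalization (0.032), and Bmp2 from day 7 to 10 with DESeq2 (0.040), its size factors (0.045) and wound days only (0.029). By the study's criteria they were 1, 2, 1, 0, 1 and 2 instead of 8, 9, 7, 8, 4 and 5. Without day 0 replicates 1 and 4 the count on day 12 was 7, and without replicates 2 and 3 it was 5 on day 10 and 8 on day 12. Without single libraries the count from day 3 to day 5 ran from 3 to 5.

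Values near 0 changed sign. Without composition normalization, which moved the median of all genes by 0.14 on day 12 and 0.13 on day 14 and the share of higher calls from 45.8% to 67.4% and from 45.0% to 56.2%, day 12 against day 0 gave 0.014 for Bmp4, 0.056 for Bmp6 and 0.14 for both Bmp7 and Id2, and day 14 gave 0.028 for Bmp2 and 0.065 for Id2. Id3 was -0.0076 (DESeq2 size factors) and -0.0083 (DESeq2) from day 3 to 5 and 0.030 in both from day 12 to 14. With only 8 libraries Id2 on day 14 was 0.010. Without day 0 replicates 1 and 4, Id1 was 0.24 on day 7 (adjusted p = 0.033), Bmp6 0.037 on day 12, and on day 14 Bmp2 was 0.021, Bmp7 -0.19 and Nog 0.077. Without replicates 2 and 3, Id2 was 0.22, 0.11, 0.30 and 0.31 on days 5, 7, 12 and 14, Id1 -0.080 on day 10, Bmp4 0.10 and Bmp7 0.40 on day 12. Over wound days only, r of Id1 and Id2 was 0.63. The cause was not tested.

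Leaving out 1 library turned the sign of 13 values, whose ranges were -0.20 to 0.070 (Bmp2, day 14), -0.10 to 0.12 (Bmp7, day 12), -0.17 to 0.019, -0.087 to 0.11 and -0.078 to 0.097 (Id2, days 5, 12 and 14), -0.11 to 0.063 (Id1, day 7) and -0.33 to 0.0033 (Nog, day 14) against day 0. Between wound days they were -0.16 to 0.084 (Bambi), -0.18 to 0.0086 (Bmp7) and -0.071 to 0.023 (Id3) from day 3 to 5, -0.096 to 0.048 (Bmp6) and -0.12 to 0.0063 (Id3) from day 5 to 7, and -0.049 to 0.031 (Id3) from day 12 to 14. Of the single-gene comparisons of days, which leave out the joint tests, 10 lost and 6 gained their call on leaving out 1 library. Those not yet given were Bambi on day 10 (adjusted p = 0.0081 without day 0 replicate 1), Bmp2 on day 12 (0.020 without day 0 replicate 3) and from day 7 to 10 (0.041 without day 10 replicate 3), Id2 on day 7 (0.029 and 0.014 without day 0 replicate 1 or 4), and Nog on day 12 (0.025 without day 0 replicate 2, 0.034 without day 12 replicate 4) and from day 7 to 10 (0.013 without day 7 replicate 1).

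The replicate numbers did not pair the libraries. Deviations of same-numbered libraries correlated between -0.076 and 0.177, over 0.1 in 1 of 84 pairs, and 8 of 28 libraries correlated best with their own number. With the replicate block Bmp7 on day 12 was 0.011, the count on day 12 was 5, and Nog on day 12 (0.047) and Bmp2 from day 7 to 10 (0.041) gained and Id2 from day 7 to 10 (0.059) lost their calls. Nog had the fewest reads (26 to 147) and an SE of 0.26 to 0.29 on the log2 scale, and its libraries of a day varied by 13.8% to 49.8% (CV), so how much of this error comes from depth was not tested.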
